A study of Mus musculus with 14 samples.

Results

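The 10 genes described here build and load the classical MHC class I molecule of the mouse. They are the heavy chains H2-K1 and H2-D1, the light chain B2m, the peptide transporter subunits Tap1 and Tap2, tapasin (Tapbp) and its relative Tapbpl, the peptidase Erap1, the oxidoreductase Pdia3 and the transcriptional activator Nlrc5. They were taken by symbol from a table of 23420 gene symbols, where all 10 were present, and all 10 passed the filter on low counts that left 14217 genes for testing.

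RNA was measured by Smart-seq2, a full-length cDNA method for small cell numbers, in 14 libraries of 150 dendritic cells (DCs) from the popliteal lymph nodes of C57BL/6 mice. The libraries follow LIPSTIC, a method that marks touching cells: a sortase on a ligand attaches biotinylated substrate to the glycine-tagged receptor that the ligand meets; here CD40 ligand of T cells carried the sortase and CD40 of DCs carried the tag. Biotin-positive (6 libraries) and biotin-negative (6 libraries) DCs came from the same kind of recipient, Cd40G5/G5 (labelled G5-Cd40+/+), which was given 500000 Cd40G5/G5 DCs pulsed with the OVA323-339 peptide in each footpad. OT-II CD4+ T cells of genotype CD40lgSrtA/Y CD4-Cre, 300000 in number, followed 18 hours later, Biotin-LPETG substrate was given at 46 hours after the T cells (300 nmol in each footpad), and nodes were taken at 48 hours. The third group (2 libraries) came from Cd40-/- recipients given WT DCs and WT OT-II T cells, so that genotype and both kinds of transferred cells differ together from the other groups. All groups were sorted as endogenous MHC-IIhi CD11c+ CD11b+ XCR1- DCs, without regard to biotin in the Cd40-null group. Ages, and whether the libraries came from separate mice, are not given in the labels, so the p-values reflect only how far these samples spread, which may be technical.

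Class I molecules carry peptides, mostly of proteasomal origin, to the cell surface for CD8+ T cells. TAP pumps peptides into the endoplasmic reticulum, where tapasin and ERp57 (the product of Pdia3) hold the empty heavy chain and light chain near the transporter, ERAP1 trims peptides that are too long, and TAPBPR (the product of Tapbpl) exchanges peptides outside the loading complex. NLRC5 activates the class I promoters through a module that includes an X2 box, bound by CREB and ATF factors, and a Y box, bound by NF-Y; interferon and NF-kB sites lie near it, and DCs raise class I when they mature.

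The promoter stretches of 4 members show how these letters differ between chains and a loading factor. The sequences are RefSeq's, build GRCm38.p6, and are printed 5' to 3' on the gene's own strand. They run from 250 bases before the RefSeq start up to that start, or stop where they first meet any GENCODE exon of the gene. Capitals mark matches on either strand to GGGNNTTCC (the core of an NF-kB motif), AANNGAAA (the core of an interferon regulatory factor motif), TGACG (the X2 box core) and ATTGG (the Y box core). The H2-K1 stretch is chr17:34000348-34000597 on the minus strand, the B2m stretch is chr2:122147437-122147685, the Tap1 stretch chr17:34187306-34187552 and the Tapbp stretch chr17:33919228-33919331, the last 3 on the plus strand. The Tapbp stretch lies within the gene as annotated by GENCODE, which starts at 33915899, and so not before its first exon.
H2-K1: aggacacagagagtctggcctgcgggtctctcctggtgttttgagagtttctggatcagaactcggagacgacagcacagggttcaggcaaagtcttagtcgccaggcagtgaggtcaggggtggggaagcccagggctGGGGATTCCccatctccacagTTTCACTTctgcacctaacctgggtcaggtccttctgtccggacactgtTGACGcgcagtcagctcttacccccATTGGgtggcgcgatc
B2m: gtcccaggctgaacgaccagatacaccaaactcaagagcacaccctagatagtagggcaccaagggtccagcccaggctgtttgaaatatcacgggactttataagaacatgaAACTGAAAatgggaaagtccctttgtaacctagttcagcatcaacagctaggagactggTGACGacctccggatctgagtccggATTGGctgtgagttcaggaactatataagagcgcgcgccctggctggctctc
Tap1: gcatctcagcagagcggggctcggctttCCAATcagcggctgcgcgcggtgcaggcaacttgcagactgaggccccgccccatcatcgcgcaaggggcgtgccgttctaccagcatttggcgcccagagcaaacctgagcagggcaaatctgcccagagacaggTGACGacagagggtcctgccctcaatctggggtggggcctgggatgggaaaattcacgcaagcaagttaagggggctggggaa
Tapbp: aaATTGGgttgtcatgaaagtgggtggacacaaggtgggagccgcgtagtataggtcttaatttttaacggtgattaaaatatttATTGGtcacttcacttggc
In the 250-base windows, H2-K1 and H2-D1 held all 4 motifs, B2m held every one but the NF-kB motif, and Tap1 and Pdia3 held the X2 and Y cores. Tapbp held 2 Y cores and no match to the others, and Erap1 held none of the 4. Some of these windows overlap GENCODE exons of the gene itself. Those of H2-D1 and Erap1 begin within an exon, and those of Tapbp and Pdia3 meet one after 104 and 123 bases. All the matches of Pdia3 lie after that point. Of 32851 promoter windows of the same length, 4.98% held the NF-kB motif, 21.3% the interferon regulatory factor core, 17.8% the X2 core and 33.8% the Y core. The first bases of the X2 core and of the Y core lay 25 bases apart in H2-K1, in H2-D1 and in B2m. Tap1 and Pdia3 lacked this arrangement, as all their Y cores matched on the opposite strand to the X2 core. No matches overlapped one another. They describe letters in a window, not bound sites. Of the members, 7 have a RefSeq entry among the promoters used here; Tap2, Tapbpl and Nlrc5 do not.

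Total counts ran from 14518099 to 33260704 per library. Cd40, the check of the null genotype, had 852 to 1309 CPM (counts scaled by the TMM-scaled library total) in biotin-positive libraries, 386 to 598 CPM in biotin-negative libraries, and 53.3 and 74.2 CPM in Cd40-null libraries; the part of the gene that the null allele lacks is not given in the labels. The number of genes with a count above 0 was 13090 to 13455 in biotin-positive libraries, 14225 to 15742 in biotin-negative libraries, and 13113 and 13596 in Cd40-null libraries. Summed CPM of 19 monocyte and macrophage markers was 101 to 256 in biotin-positive libraries, 272 to 1442 in biotin-negative libraries and 305 to 565 in Cd40-null libraries; 11 of the 19 were lower in biotin-positive than in biotin-negative libraries, 0 were higher, and none was at 0 in every library of either group. Among them, Itgam (CD11b, a gate of the sort) averaged 1.91 ± 2.38 CPM in biotin-positive libraries, against 25.3 ± 21.3 CPM in biotin-negative libraries (SD, n = 6 each). Of 15 T cell markers 1 was lower in biotin-positive than in biotin-negative libraries and 0 were higher. Their summed CPM was 70.3 to 112 in biotin-positive, 104 to 241 in biotin-negative and 145 to 286 in Cd40-null libraries. The median log2 fold change of the 15, biotin-positive over biotin-negative, was 1.35, so the sums and the median ran in opposite directions. Summed CPM of 6 Langerhans cell markers was 321 to 375 in biotin-positive libraries, 80.4 to 183 in biotin-negative libraries, and 169 to 175 in Cd40-null libraries. For 10 NK cell markers it was 39.0 to 72.7 in biotin-positive and 152 to 244 in biotin-negative libraries. For 6 plasmacytoid DC markers it was 81.9 to 198 against 230 to 532, and for 7 neutrophil markers 15.0 to 21.0 against 25.6 to 35.3. Few single genes behind these sums were called between the biotin-positive and biotin-negative groups. Of 6 Langerhans cell markers 2 were higher and 0 lower. Lower were 2 of 4 tested NK cell, 1 of 6 plasmacytoid DC and 1 of 2 tested neutrophil markers, and 0 were higher. The median log2 fold change of the 6 plasmacytoid DC markers was -0.16. Sums of B cell, type 1 DC and stroma markers overlapped between these groups. Of 16 genes of conventional DCs and their maturation, 2 were higher in biotin-positive than in biotin-negative libraries (Fscn1 and Ccl22), 5 were lower (Itgax, H2-Aa, H2-Ab1, Cd74 and Dpp4) and 9 were not called. Those lower include the CD11c gate of the sort, Itgax (55.5 ± 5.71 against 139 ± 55.4 CPM), and the MHC class II chain H2-Aa (442 ± 197 against 1776 ± 431 CPM). Flt3 (1015 ± 87.6 against 849 ± 89.0 CPM) and Zbtb46 (189 ± 40.3 against 161 ± 28.4 CPM) were not called. Rn45s, a ribosomal RNA precursor, took 15.0 to 19.5% of counts in biotin-positive libraries, 19.6 to 21.5% in biotin-negative libraries, and 18.3 and 20.7% in Cd40-null libraries. The part of these markers, of Rn45s and of the detected-gene number in the results below was not tested, except where a fit that includes them is named.

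Between biotin-positive and biotin-negative DCs, Tapbpl was 1.92-fold and tapasin 1.60-fold higher in biotin-positive libraries, Tap2 was 1.30-fold higher, and the chains H2-K1, H2-D1 and B2m, Tap1, Erap1, Nlrc5 and Pdia3 did not pass the test. That is 3 members higher and 0 lower at a false discovery rate of 0.05 in edgeR's quasi-likelihood test across all 14217 genes, where 3.7% of all genes were called higher and 4.05% lower (7.75% either way). All 10 log2 fold changes were positive, with a median of 0.23, against a median of -0.03 over all genes tested. In bulk libraries of sorted cells, fewer cells with a transcript and less of it per cell cannot be told apart.

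Tapbpl lies on chromosome 6 (125223933 to 125231860, minus strand; GRCm38). It had a lowest, median and highest level of 499, 627 and 683 CPM in biotin-positive libraries, against 274, 312 and 389 CPM in biotin-negative libraries. The lowest biotin-positive library was above the highest biotin-negative one. The log2 fold change was 0.94 (SE 0.11, adjusted p = 4.76e-05). With detected genes per library as a covariate, a number that differs between the groups, the log2 fold change was 0.55 (SE 0.23, adjusted p = 0.383). With the monocyte and macrophage marker level as a covariate, the log2 fold change was 1.13 (SE 0.23, adjusted p = 0.0339).

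Tapbp, tapasin, lies in the MHC on chromosome 17 (33915899 to 33929292, plus strand). Its lowest, median and highest levels were 2140, 2548 and 2629 CPM in biotin-positive libraries, against 1413, 1497 and 1687 CPM in biotin-negative libraries. Again no biotin-negative library reached the biotin-positive range. The log2 fold change was 0.67 (SE 0.08, adjusted p = 7.38e-05). Its call was lost with detected genes per library as a covariate (log2 0.52, SE 0.19, adjusted p = 0.327). It was also lost with the monocyte and macrophage marker level (log2 0.69, SE 0.18, adjusted p = 0.105). Both covariates differ between the groups, and the standard errors were larger with them. Tapbp and Tapbpl are the 2 members whose groups did not overlap, against 2.6% of all genes tested in the same direction.

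The transporter is a dimer of TAP1 and TAP2, encoded side by side on chromosome 17 (Tap1 34187553 to 34197225, Tap2 34203527 to 34216321, both on the plus strand). Tap2 had a lowest, median and highest level of 407, 427 and 522 CPM in biotin-positive libraries, against 305, 342 and 414 CPM in biotin-negative libraries. The ranges overlapped only at their edges, and the log2 fold change was 0.38 (SE 0.10, adjusted p = 0.0238). Its call was lost without biotin-positive replicate 3 or 6 (adjusted p = 0.0613 and 0.0606) and without biotin-negative replicate 3 (0.0585). With covariates the call was also lost, at larger standard errors. The log2 fold change was 0.40 with detected genes (SE 0.22, adjusted p = 0.561) and 0.55 with monocyte and macrophage markers (SE 0.20, adjusted p = 0.335). With T cell markers it was 0.40 (SE 0.12, adjusted p = 0.0604). Tap1 had 520, 587 and 670 CPM in biotin-positive libraries, against 439, 498 and 521 CPM in biotin-negative libraries, so that the highest biotin-negative library passed the lowest biotin-positive one narrowly. Its log2 fold change of 0.26 (SE 0.08) missed the threshold, with an adjusted p of 0.0657; it passed in DESeq2 (0.0203) and, in edgeR, without biotin-positive replicate 1 (0.0489) and with the T cell marker covariate (0.0210). Tap1 shares exon bases with Psmb9 on the opposite strand, which had 262 ± 25.8 CPM in biotin-positive libraries against 214 ± 47.1 CPM in the biotin-negative ones (SD, n = 6 each); the counting is not stated to use strand, so reads from the shared bases cannot be told apart. Tap2 and Tapbp overlap the antisense loci Gm20496, Gm15821 and Gm19412, which were not analysed here.

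The chains of the class I molecule itself were abundant in every library. H2-K1 (chromosome 17, 33996017 to 34000347, minus strand) had a lowest, median and highest level of 4514, 4923 and 5290 CPM in biotin-positive libraries, against 3799, 4051 and 4783 CPM in biotin-negative libraries. H2-D1 (chromosome 17, 35262730 to 35267499, plus strand) had 5537, 5869 and 6510 CPM in biotin-positive libraries, against 4496, 4761 and 6133 CPM in biotin-negative libraries. For both heavy chains the biotin-positive median was above the biotin-negative one, while the ranges overlapped. The log2 fold changes were 0.22 (SE 0.07, adjusted p = 0.0680) for H2-K1 and 0.23 (SE 0.09, adjusted p = 0.122) for H2-D1, neither past the threshold. H2-K1 passed it in DESeq2 (adjusted p = 0.0312), limma voom (0.0253) and limma on the normalized signal (0.0356), while H2-D1 passed in edgeR with the T cell marker covariate (0.0341). Without biotin-negative replicate 2 both passed in edgeR (adjusted p = 0.0251 and 0.0326). Reads of the H2 family are shared between near-identical genes, so the split between H2-K1, H2-D1 and the other H2 chains is uncertain.

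B2m (chromosome 2, 122147686 to 122153083, plus strand), the light chain that all these heavy chains share, had 5767, 6396 and 8140 CPM as its lowest, median and highest levels in biotin-positive libraries, against 5164, 6214 and 7442 CPM in biotin-negative libraries. The groups overlapped over most of their range. Its log2 fold change was 0.06 (SE 0.10, adjusted p = 0.823), with a 95% interval of -0.15 to 0.27.

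Erap1 (chromosome 13, 74639568 to 74693201, plus strand) had 150, 171 and 203 CPM in biotin-positive libraries, against 122, 143 and 178 CPM in biotin-negative libraries (lowest, median and highest). Its log2 fold change of 0.22 (SE 0.11) did not pass the test (adjusted p = 0.290). Pdia3 (chromosome 2, 121413775 to 121438687, plus strand), whose product ERp57 serves many glycoproteins besides class I, had 281, 312 and 342 CPM in biotin-positive libraries, against 284, 302 and 328 CPM in biotin-negative libraries. The ranges nearly coincided, with a log2 fold change of 0.05 (SE 0.08, adjusted p = 0.795, 95% interval -0.11 to 0.22). Erap1 shares exon bases with Cast on the opposite strand, at a mean of 107 CPM over the 14 libraries, and Pdia3 with Catsper2, at 1.96 CPM.

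Nlrc5 (chromosome 8, 94434356 to 94527272, plus strand), the class I transactivator, had 365, 436 and 496 CPM in biotin-positive libraries, against 330, 399 and 550 CPM in biotin-negative libraries (lowest, median and highest). The biotin-positive range fell within the biotin-negative one. The log2 fold change was 0.07 (SE 0.11, adjusted p = 0.801, 95% interval -0.16 to 0.31). It shares exon bases with 9330175E14Rik on the opposite strand, at a mean of 9.47 CPM.

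**Figure D1:**
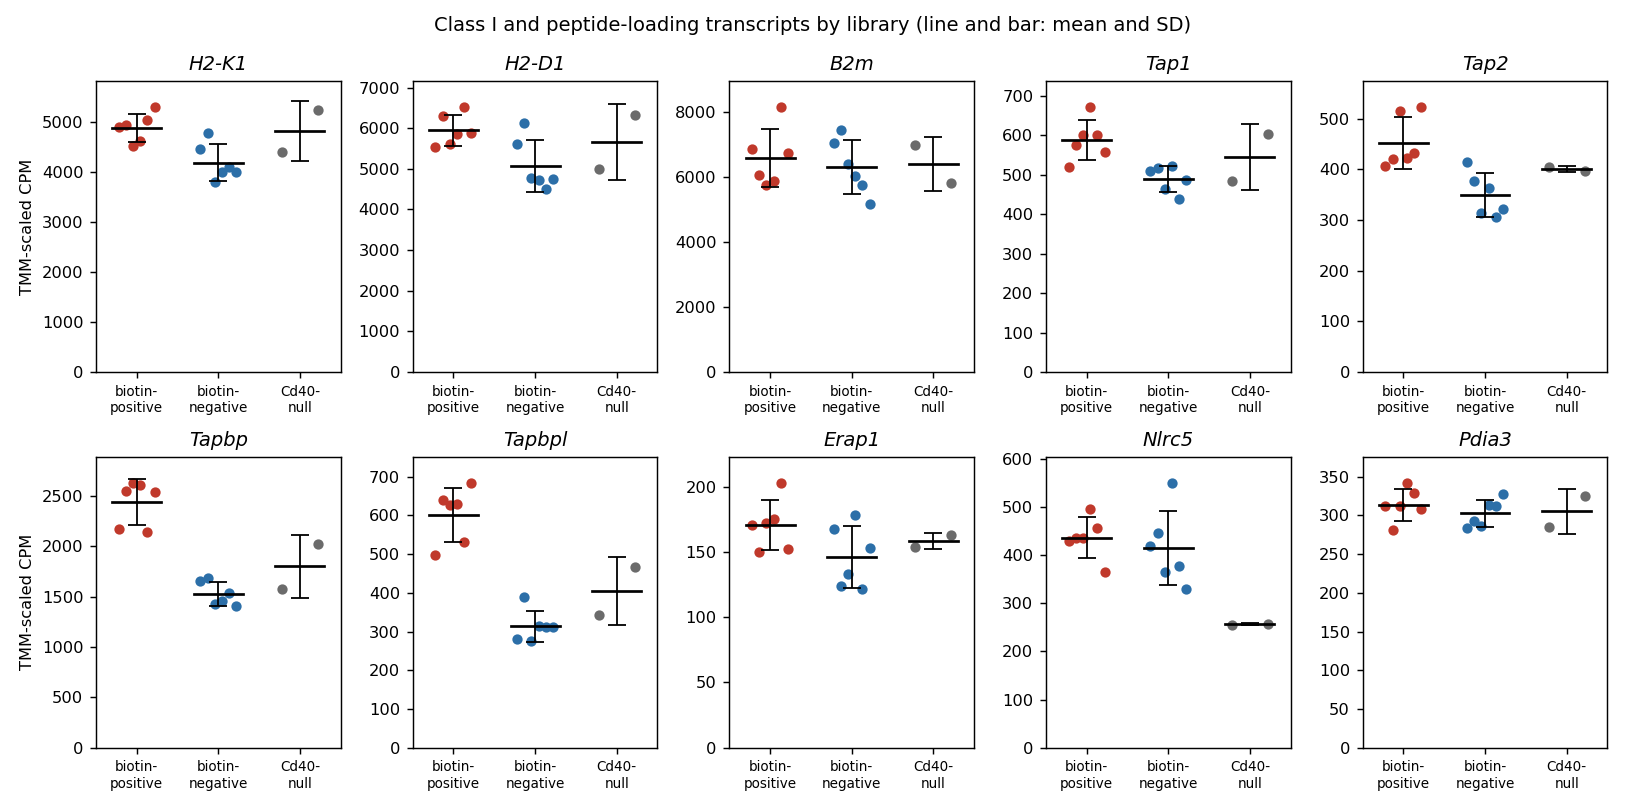
TMM-scaled CPM of the 10 members in each library, in biotin-positive (6), biotin-negative (6) and Cd40-null (2) groups; points are libraries, lines and bars are mean and SD, and each axis starts at 0. Tapbp and Tapbpl separate the biotin-positive from the biotin-negative libraries, and for Nlrc5 the 2 Cd40-null libraries, at 255 and 258 CPM, sit below every other library.

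Ratios of 2 members within a library do not depend on how libraries are scaled, and show whether other members moved apart from the light chain. The 12 ratios were chosen after the values were seen, each was compared between biotin-positive and biotin-negative libraries by an exact two-sided permutation test of the log2 ratio over 924 arrangements, and p-values were adjusted over the 12. Tapbpl counts were 9.34 ± 1.93% of B2m counts in biotin-positive libraries (range 6.52 to 10.9%), against 5.03 ± 0.759% in biotin-negative libraries (3.98 to 6.03%; SD, n = 6 each), 1.84-fold higher with no overlap (exact permutation p = 0.00216, adjusted p = 0.026). Tapbp counts were 38.0 ± 7.69% of B2m counts in biotin-positive libraries (26.3 to 45.6%), against 24.5 ± 2.11% in biotin-negative libraries (22.3 to 27.4%), 1.53-fold higher (exact permutation p = 0.00649, adjusted p = 0.026). Here 1 biotin-positive library lay within the biotin-negative range.

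Tapbpl also differed relative to Tapbp itself. Its counts were 24.6 ± 1.34% of Tapbp counts in biotin-positive libraries, against 20.5 ± 2.21% in biotin-negative libraries (SD, n = 6 each), 1.203-fold higher (exact permutation p = 0.00433, adjusted p = 0.026). The groups met at the edge, with 22.97% as the lowest biotin-positive and 23.03% as the highest biotin-negative value. The ratio was 21.7 and 23.05% in the 2 Cd40-null libraries.

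The other 9 ratios did not pass the adjustment. The ratio of Tap2 to B2m was 1.25-fold higher in biotin-positive libraries (exact permutation adjusted p = 0.0974), and those of H2-K1 and H2-D1 to B2m were 1.120-fold and 1.128-fold higher (adjusted p = 0.169 and 0.145). Without biotin-positive replicate 5, the library with the most B2m, the ratios of Tap2 and H2-K1 to B2m passed (both with an exact permutation adjusted p of 0.026). H2-D1 counts were 122 ± 7.87% of H2-K1 counts in biotin-positive libraries and 121 ± 6.90% in biotin-negative libraries, so the balance of both heavy chains differed by less than its spread (exact permutation adjusted p = 0.930).

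**Figure D2:**
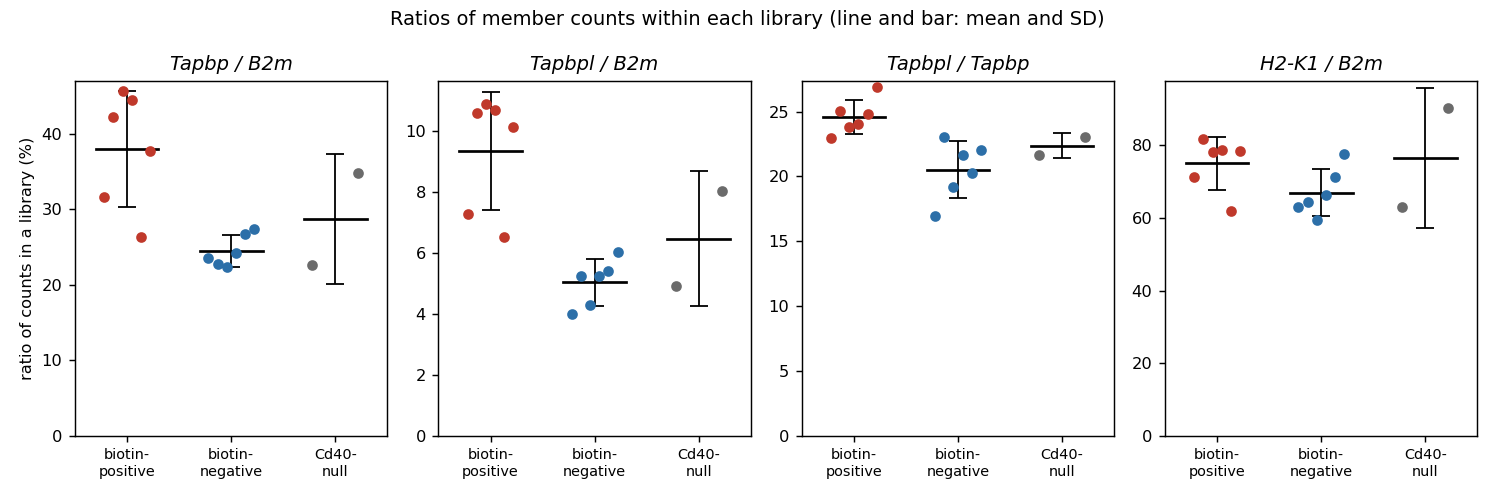
Counts of one member as a percent of another in the same library (y axis, from 0), for Tapbp and Tapbpl over B2m, Tapbpl over Tapbp and H2-K1 over B2m, in biotin-positive, biotin-negative and Cd40-null libraries; points are libraries, lines and bars are mean and SD. Tapbpl over B2m separates the biotin-positive libraries (6.52 to 10.9%) from the biotin-negative ones (3.98 to 6.03%), while H2-K1 over B2m overlaps.

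Per kilobase of the longest annotated coding transcript, the members spanned a wide range of levels, with the same order at the top in all 3 groups. In biotin-positive libraries B2m led at 7645 ± 1037 CPM per kilobase, followed by H2-K1 (3018 ± 175) and H2-D1 (2830 ± 182), whose ranges overlapped. Tapbp followed at 843 ± 77.5, well under the chains, and Tapbpl at 256 ± 30.1, above Tap1 at 199 ± 17.1 CPM per kilobase. In biotin-negative libraries the means of that pair stood in the other order, with Tapbpl at 133 ± 17.2 and Tap1 at 166 ± 11.1 CPM per kilobase. Their ranges overlapped in both groups. Tapbpl had 212 to 290 and Tap1 176 to 227 CPM per kilobase in biotin-positive libraries, against 117 to 165 and 149 to 176 in biotin-negative libraries. Tap2 (132 ± 14.9) and Pdia3 (113 ± 7.42) overlapped in biotin-positive libraries, and Nlrc5 (57.6 ± 5.62) and Erap1 (30.2 ± 3.37 CPM per kilobase) stood lowest (SD, n = 6).

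Against Cd40-null DCs, biotin-positive DCs differed in another member, Nlrc5. It was the 1 member called, higher in biotin-positive libraries, where 1.22% of all genes were called higher and 1.05% lower (2.27% either way). Nlrc5 had 365 to 496 CPM in biotin-positive libraries, against 255 and 258 CPM in Cd40-null libraries. The groups did not overlap, and the log2 fold change was 0.77 (SE 0.17, adjusted p = 0.0212), 1.70-fold. The log2 fold change was 0.76 to 0.77 with either null library left out, where 1 remained in that group and the call was lost. The call was also lost with 2 covariates, at larger standard errors. The log2 fold change was 0.78 with the monocyte and macrophage marker level (SE 0.20, adjusted p = 0.0823). With the T cell marker level it was 0.71 (SE 0.18, adjusted p = 0.0633).

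Tapbp had 1582 and 2024 CPM in the Cd40-null libraries and Tapbpl 343 and 466 CPM, both below every biotin-positive library. The log2 fold changes of biotin-positive over Cd40-null libraries were 0.44 for Tapbp (SE 0.12, adjusted p = 0.0701) and 0.57 for Tapbpl (SE 0.16, adjusted p = 0.0731), neither past the threshold in edgeR, while DESeq2 called both (adjusted p = 0.0139 and 0.0160). Tapbp passed in edgeR without biotin-positive replicate 5 (0.0465), and Tapbpl without biotin-negative replicate 2 (0.0464). With Tap2 and Nlrc5, 4 members were higher in every biotin-positive library than in both null libraries, against 7.81% of all genes tested. The chains were close, with log2 fold changes of 0.02 for H2-K1 (95% interval -0.19 to 0.23), 0.07 for H2-D1 (-0.18 to 0.33) and 0.04 for B2m (-0.26 to 0.34). Over the 10 members the median was 0.11, against 0.04 over all genes. Since this comparison shares its biotin-positive libraries with the previous one, the values of both stand side by side and were not tested against each other.

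Between biotin-negative and Cd40-null DCs, edgeR called 0 members, where it called 0.317% of all genes (0.274% higher and 0.0422% lower). At an unadjusted p under 0.05 there were 2 of the 10 members, Nlrc5 and Tapbpl. The same rule took 1311 of all 14217 genes tested. Nlrc5 had 330 to 550 CPM in biotin-negative libraries, against 255 and 258 CPM in Cd40-null libraries, the 1 member that was higher with no overlap (6.23% of all genes tested). Its log2 fold change was 0.69 (SE 0.17, adjusted p = 0.107); DESeq2 and limma on the deposited normalized signal called it (adjusted p = 0.00430 and 0.0463), and limma voom called 0 members. Tapbpl had 274 to 389 CPM in biotin-negative libraries, against 343 and 466 CPM in Cd40-null libraries, overlapping, with a log2 fold change of -0.37 (SE 0.15, adjusted p = 0.476). The other 8 members had log2 fold changes from -0.24 (Tapbp) to -0.01 (Pdia3), and the median over the 10 was -0.15, against 0.06 over all genes.

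**Figure D3:**
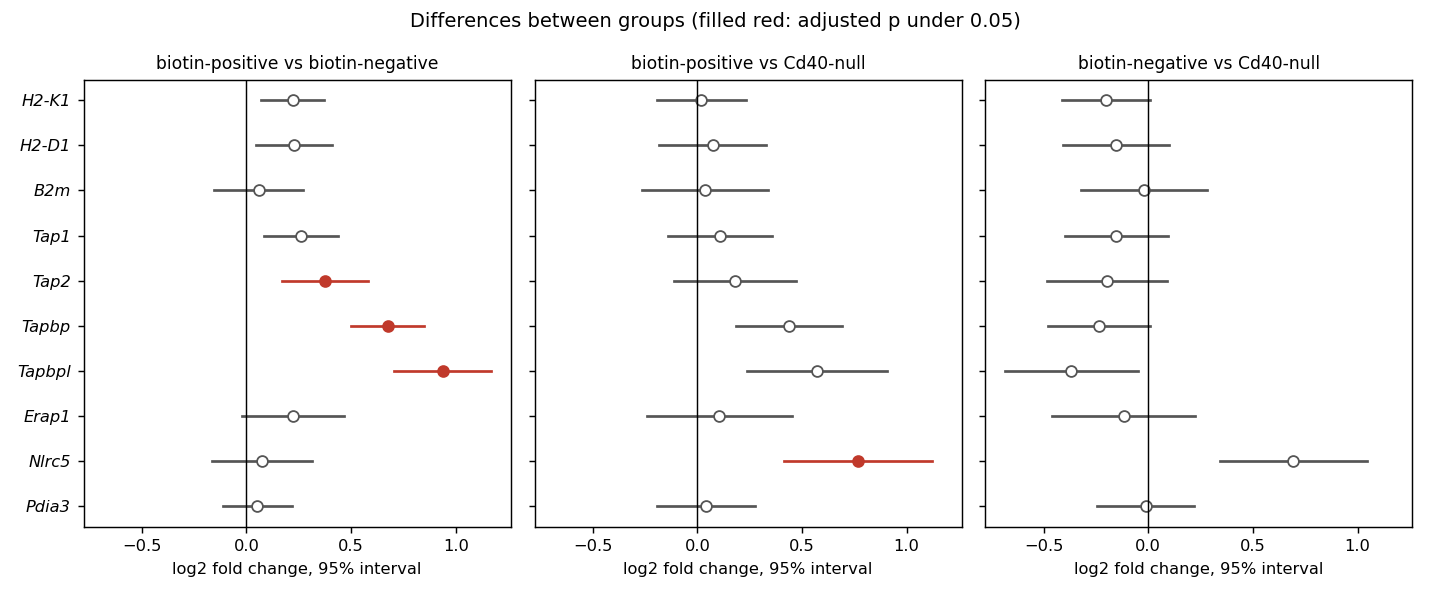
Log2 fold change of each member (x axis, with the 95% interval as a line) for biotin-positive over biotin-negative, biotin-positive over Cd40-null and biotin-negative over Cd40-null libraries; filled red points have an adjusted p under 0.05. Tap2, Tapbp and Tapbpl are filled in the first comparison (0.38, 0.67 and 0.94), Nlrc5 in the second (0.77) and none in the third.

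The rest of the pathway was read from 6 lists, whose counts stand beside 3.7% of all genes called higher and 4.05% called lower in biotin-positive against biotin-negative libraries. A list of 12 proteasome genes held activator and immunoproteasome genes, and also constitutive subunits and the inhibitor Psmf1. Their median log2 fold change was 0.37, biotin-positive over biotin-negative. Of the 12 genes, 4 were higher and 0 lower in biotin-positive than in biotin-negative libraries. They were Psme1, a subunit of the PA28 activator (680 ± 41.9 against 495 ± 74.7 CPM, log2 0.46, SE 0.10, adjusted p = 0.00643), its partner subunit Psme2 (962 ± 115 against 719 ± 142 CPM, log2 0.42), the immunoproteasome subunit Psmb8 (1072 ± 78.0 against 859 ± 133 CPM, log2 0.32) and Psmf1, a proteasome inhibitor (59.5 ± 3.04 against 42.3 ± 8.69 CPM, log2 0.49; SD, n = 6 each). Psme1 and Psmf1 separated the groups. No gene of this list was called against the Cd40-null libraries.

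Among 17 other class I and class I-like chains, 1 was higher and 2 were lower, with a median of 0.05. H2-M2, a non-classical class I chain on chromosome 17 (37480851 to 37483552, minus strand), had a lowest, median and highest level of 853, 941 and 1201 CPM in biotin-positive libraries, against 359, 473 and 562 CPM in biotin-negative libraries. The groups did not overlap, with a log2 fold change of 1.03 (SE 0.11, adjusted p = 2.93e-05), and the Cd40-null libraries stood between them at 675 and 856 CPM. Cd1d1, which presents lipids to NKT cells, fell to 44.7 ± 18.02 CPM in biotin-positive libraries, against 104 ± 42.0 CPM in biotin-negative libraries (a log2 fold change of -1.22, adjusted p = 0.0090). Fcgrt, the neonatal Fc receptor chain that also pairs with B2m, fell to 21.5 ± 7.10 CPM, against 41.2 ± 11.7 CPM (log2 -0.94, adjusted p = 0.0195). H2-T23, the Qa-1 chain, had 1048 ± 83.8 CPM in biotin-positive libraries, against 829 ± 146 CPM in biotin-negative libraries, and did not pass (adjusted p = 0.0726).

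Of 22 regulators of class I transcription, 3 were higher and 0 lower, with a median of 0.18. Irf8, an interferon regulatory factor of DC development, had 437 ± 98.6 CPM in biotin-positive libraries, against 191 ± 47.2 CPM in biotin-negative libraries (a log2 fold change of 1.196, SE 0.18, adjusted p = 0.000431). Irf1, which binds interferon response elements of class I genes, had 1123 ± 97.0 CPM, against 696 ± 137 CPM (log2 0.69, SE 0.12, adjusted p = 0.00141). Both separated the groups, and Ezh2, the methyltransferase of Polycomb complex PRC2, was also higher (46.6 ± 8.63 against 29.2 ± 6.04 CPM). Against Cd40-null libraries, 1 gene of this list was higher and 1 lower, beside 1.22% and 1.05% of all genes. The higher one was Rfxank, a subunit of the RFX complex at the X box (50.8 ± 3.29 CPM in biotin-positive libraries against 24.2 ± 3.83 CPM; n = 6 and 2).

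Of 21 genes of folding and quality control in the endoplasmic reticulum, 0 were higher and 1, the translocon subunit Sec61b, was lower in biotin-positive than in biotin-negative libraries, with a median of -0.02. The chaperone Calr, calreticulin, had 109.8 ± 17.4 CPM in biotin-positive libraries, against 132 ± 11.4 CPM in biotin-negative libraries, and was not called. Of 10 cytosolic and endosomal peptidases, 1 was lower, Ctss, the cathepsin that cleaves the class II invariant chain (981 ± 85.6 against 1223 ± 101 CPM, log2 -0.32). Of 16 genes of cross-presentation and class I traffic, Ap2m1, a clathrin adaptor subunit, was higher (log2 0.28). Cybb, the catalytic subunit of the phagosomal NADPH oxidase, was lower (25.97 ± 14.1 against 106 ± 18.7 CPM). The syntaxin Stx3 was also lower, at low levels whose ranges overlapped (1.19 ± 1.26 against 7.14 ± 4.18 CPM, adjusted p = 0.0417). Cybb is also expressed by monocytes and macrophages, whose markers were lower in the same libraries. The part of such cells in the Cybb difference was not tested. Against Cd40-null libraries, the call in these 3 lists was Sel1l, an adaptor of endoplasmic reticulum degradation, with 406 ± 48.3 CPM in biotin-positive libraries against 248 ± 20.3 CPM in Cd40-null libraries (log2 0.71, adjusted p = 0.0163).

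**Figure D4:**
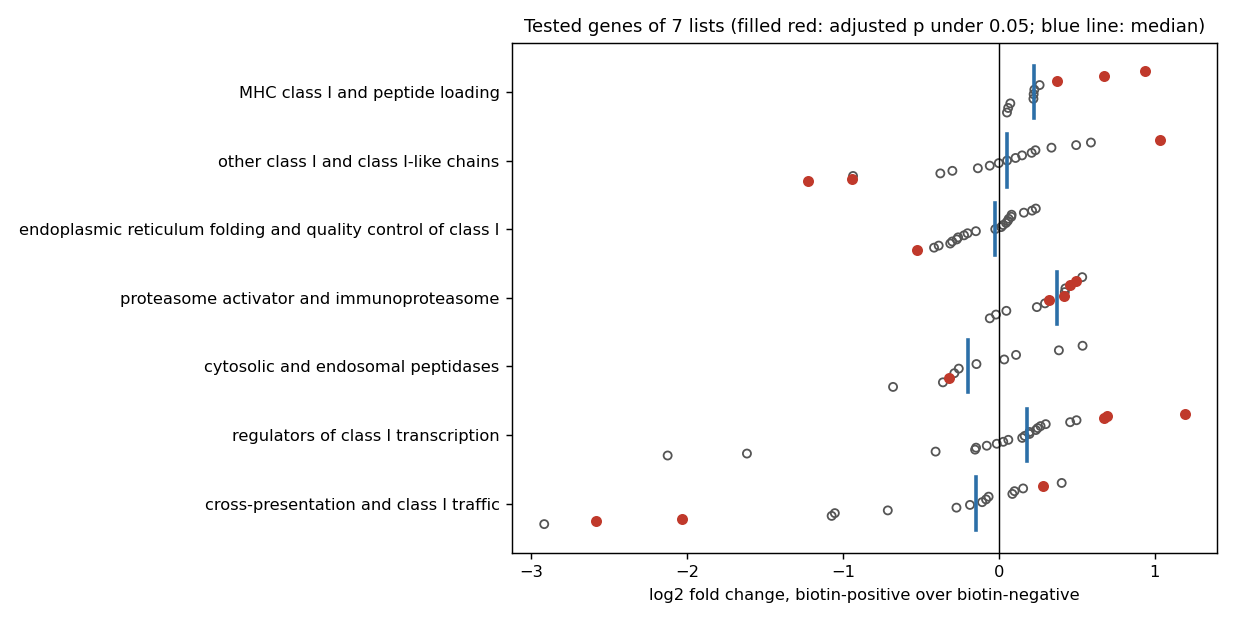
Log2 fold change of biotin-positive over biotin-negative libraries (x axis) for each tested gene of the 10 members and of 6 further lists; points are genes, filled red where the adjusted p is under 0.05, and blue lines are list medians. The medians of the members (0.23) and of the proteasome list (0.37) lie right of 0, and H2-M2 (1.03) and Irf8 (1.196) are the filled points farthest right.

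Genes whose pattern over the 14 libraries was most like the mean standardized profile of the 10 members were Lsp1, Trafd1, Taf6l, Fgd2 and Anxa7. Their root mean square differences from that profile were 0.424, 0.443, 0.449, 0.450 and 0.457, where the median over 5932 candidate genes was 1.14. All 5 were higher in biotin-positive than in biotin-negative libraries, with log2 fold changes from 0.49 (Trafd1) to 0.79 (Fgd2). They were picked for a profile that itself differs between these groups, so these fold changes describe the choice.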

How the data were processed

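Smart-seq2 libraries of 150 sorted cells were sequenced as paired-end reads of 38 bp, per the labels' protocols. The submitters' processing notes name build mm10, RSEM 1.2.8, Bowtie2 2.1.0 and DESeq2 1.16.0; their roles, settings, annotation and strand are not given in the sources used here. The unit tested is the expected count of each gene symbol from RSEM, as deposited by the authors. Their other deposited table gives normalized signal (10321 genes), equal to the count divided by 1 factor per library.

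Expected counts were rounded to whole numbers, filtered (filterByExpr, min.count 10), scaled by TMM and tested two-sided with edgeR 4.0.16 in R 4.3.3 (robust quasi-likelihood fit of all 14 libraries, Benjamini-Hochberg adjustment over 14217 genes, called at 0.05). CPM are TMM-scaled. Standard errors are the absolute log2 fold change over the square root of F, and intervals are 95%. Ratios used exact permutation tests. Alternatives were other scalings and filters, DESeq2 1.42.0, limma 3.58.1 (voom, and log2 of the signal plus 1), only the groups compared, a replicate block, covariates, and each replicate left out. The pipeline was tested on simulated data.

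The members and lists were chosen with earlier results of these data known. Named genes were all members, up to 4 genes with the smallest p of each list with a mean CPM no lower than 5, and the 5 most similar genes with a mean CPM no lower than 20; Stx3, Psmb9, Cast, Catsper2, 9330175E14Rik, Itgam, Rn45s and the named genes of the DC list were added after their values were seen. Positions and transcript lengths are GENCODE vM21 (GRCm38), 1-based. One item of the lists is not reported here.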

Additional observations from a re-analysis of the deposited data

Results flagged for a closer look

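Tapbpl in biotin-negative replicate 2 stood apart from the other libraries of its group, at 389 CPM (388.6), where the other 5 lay between 274 and 315 CPM. Its gap to the next library was 0.647 of the group's range, above Dixon's critical value for 6 libraries. Of 20 groups of 6 libraries examined this was the 1 that passed, and chance passes about 5% of groups.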

How the results depend on the processing

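The calls of Tapbp and Tapbpl between biotin-positive and biotin-negative libraries held under other scalings and filters, DESeq2, limma and every left-out replicate, with exceptions for the covariates given beside them in the report; none of the causes was tested. Between biotin-positive and biotin-negative libraries, DESeq2 called 1758 genes and 5 members, in place of 1102 and 3. With detected genes per library as a covariate 11 genes and 0 members were called, with monocyte and macrophage markers 101 and 1, and with T cell markers 731 genes. Leaving out 1 replicate gave 839 to 1106 called genes and 2 to 5 members, the 5 without biotin-negative replicate 2.

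Between biotin-positive and Cd40-null libraries, 323 genes and 1 member were called, against 888 and 3 by DESeq2, 606 and 3 by limma voom, 3 members by limma on the deposited normalized signal, 156 and 0 with monocyte and macrophage markers as a covariate, and 0 members with T cell markers. Leaving out 1 replicate gave 78 to 346 genes and 0 to 2 members: 78 and 0 without null replicate 1, 95 and 0 without null replicate 2, and 2 members without biotin-positive replicate 5 or biotin-negative replicate 2. Between biotin-negative and Cd40-null libraries, the 45 genes and 0 members became 369 and 1 in DESeq2 and 81 and 1 in limma on the signal. They were 29 genes with only the groups compared, 6 with detected genes and 13 with T cell markers as covariates. Leaving out 1 replicate gave 12 to 54 genes (21 without null replicate 1, 12 without null replicate 2) and 0 members; where 1 null library was left, it was assumed to vary like the other groups.

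With the replicate number as a block (replicate block), 891 genes and 2 members were called between biotin-positive and biotin-negative libraries, Tap2 missing the threshold (adjusted p = 0.0676); against the Cd40-null libraries, 129 genes were called for the biotin-positive and 19 for the biotin-negative ones. Same-numbered biotin-positive and biotin-negative libraries did not deviate together (r from -0.0226 to 0.0132 over 14217 genes, and 1 of 6 correlated best with its own number). A low correlation cannot show that same-numbered libraries came from separate mice, and the labels state no pairing.

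Signs changed only among values that were not called, most of them near 0; the largest was Tapbpl between biotin-negative and Cd40-null libraries, -0.37 in the report. Between biotin-positive and biotin-negative libraries, the log2 fold change of B2m was -0.0093 with detected genes and -0.19 with monocyte and macrophage markers as covariates, and -0.010 to 0.11 with 1 replicate left out; that of Nlrc5 was -0.17 with detected genes as the covariate. Between biotin-positive and Cd40-null libraries, B2m was at -0.0055 in limma voom and -0.088 with monocyte and macrophage markers, H2-K1 at -0.033 with those markers and -0.018 with T cell markers, H2-D1 at -0.027 and Pdia3 at -0.00076 with T cell markers, and Pdia3 at -0.034 in the replicate block. With 1 replicate left out, H2-K1 ran from -0.10 to 0.15, H2-D1 from -0.085 to 0.25, B2m from -0.090 to 0.18, Tap1 from -0.039 to 0.27 and Pdia3 from -0.052 to 0.14. Between biotin-negative and Cd40-null libraries, B2m was at 0.076 in the replicate block, 0.045 with detected genes and 0.0995 with monocyte and macrophage markers, Tapbpl at 0.0088 with detected genes, and Pdia3 at 0.00088 under a stricter filter (min.count 50). With 1 replicate left out, H2-D1 ran from -0.31 to 0.021, B2m from -0.15 to 0.12, Tap1 from -0.30 to 0.010 and Pdia3 from -0.11 to 0.084.

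With each biotin-sorted replicate left out, an alternative chosen after seeing the data, the ratios of Tapbp and Tapbpl to B2m and of Tapbpl to Tapbp stayed past the threshold (largest adjusted p 0.0433, exact permutation). The log2 ratio difference ran from -0.041 to 0.12 for Nlrc5 to B2m, -0.068 to 0.070 for Pdia3 to B2m and -0.018 to 0.037 for H2-D1 to H2-K1. The 2 Cd40-null libraries limit every comparison with that group.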
